A study of Mus musculus with 8 samples.

Results

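The Hippo pathway is a kinase cascade that restrains growth. STK3 and STK4 (also called MST2 and MST1), helped by the scaffold SAV1, phosphorylate LATS1, LATS2 and their coactivators MOB1A and MOB1B. LATS kinases then phosphorylate the coactivators YAP and TAZ, which keeps them out of the nucleus and away from the TEAD DNA-binding proteins, and NF2, WWC1 (KIBRA) and the TAO kinases act above this core. In mammary epithelium LATS kinases are known for restraining tumor growth and for their part in luminal identity, and Lats2 is itself a known target of YAP, TAZ and TEAD.

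The chromatin of the 10 genes Lats1, Lats2, Stk3, Stk4, Sav1, Mob1a, Mob1b, Nf2, Wwc1 and Taok1 was described from 8 lists of ATAC-seq peaks, stretches of DNA open to the Tn5 transposase. The genes were named by their place in the pathway, out of 21938 protein-coding genes. A peak was assigned to a gene when it overlapped the gene body or lay within 5 kb of an annotated transcription start site (TSS). The peaks so assigned fell into 113 of the 183173 regions formed by merging the peaks of the 8 libraries.

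Cells came from cell lines derived from mammary tumors of mice carrying the polyomavirus middle T oncogene (PyMT), which all 4 groups shared. The paper gives the strain FBV/N for its PyMT tumors and for the syngeneic hosts of such lines, and names none for the lines themselves. The cells were WT or Lats1-CKO, a conditional knockout of Lats1. They were sorted into luminal (EpCAM-high, CD49f-high) and basal-like (EpCAM-low, CD49f-high) cells, then expanded briefly. The WT libraries were BM1 with BM5 from luminal cells and BM2 with BM6 from basal-like cells. The Lats1-CKO libraries were BM3 with BM7 (luminal) and BM4 with BM8 (basal-like). The paper calls the replicates of a group biological. The paper gives an age and the female sex for the mice of its PyMT tumor samples, and neither for those behind the lines. The Cre driver, the deleted exons of Lats1, and how many lines stood behind the libraries were not given in the sources used here. The p-values thus measure the spread between these libraries, which need not be that between mice or lines.

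BM3 held 14753 peaks and the other 7 libraries 51497 to 99022. Beyond BM3, Lats1-CKO libraries held more peaks (86279 to 99022) than WT libraries (51497 to 72685), so peak calling and genotype cannot be told apart there. The lists hold a score for each peak and no read counts, so depth is unknown. Of 12 luminal marker genes, 6 to 12 had a promoter peak in a luminal library and 6 to 10 in a basal-like library. Of 11 basal-like markers these numbers were 2 to 8 and 5 to 7, with no promoter peak at Trp63 in any library and one at Krt5 in BM7 alone. Of 6 fibroblast markers, 0 to 2 had one in luminal and 3 to 4 in basal-like libraries. Of 5 immune markers the numbers were 0 to 1 and 0 to 3, and of 4 endothelial markers 0 to 2 and 1 to 2. The low ends of the luminal libraries for luminal, basal-like and fibroblast markers came from BM3. Without BM3, luminal libraries had a promoter peak at 10 to 12 luminal, 6 to 8 basal-like and 2 fibroblast markers.

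A gene's promoter level was the percentile, within its library, of the highest-scoring peak within 1 kb of any of its TSSs, and 0 where there was none. All 10 genes had a promoter peak in each of the 7 libraries without BM3. In BM3, 7 of them had one, while Lats1, Sav1 and Wwc1 had none. Of 36 other Hippo genes 26 (72.2%) had a promoter peak in all 7 libraries, and of all protein-coding genes 43.9%. The 10 genes span a wide range of levels, from Nf2 near the top of every library to Wwc1 and Sav1 near the bottom of the genes with a promoter peak throughout.

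**Figure D1:**
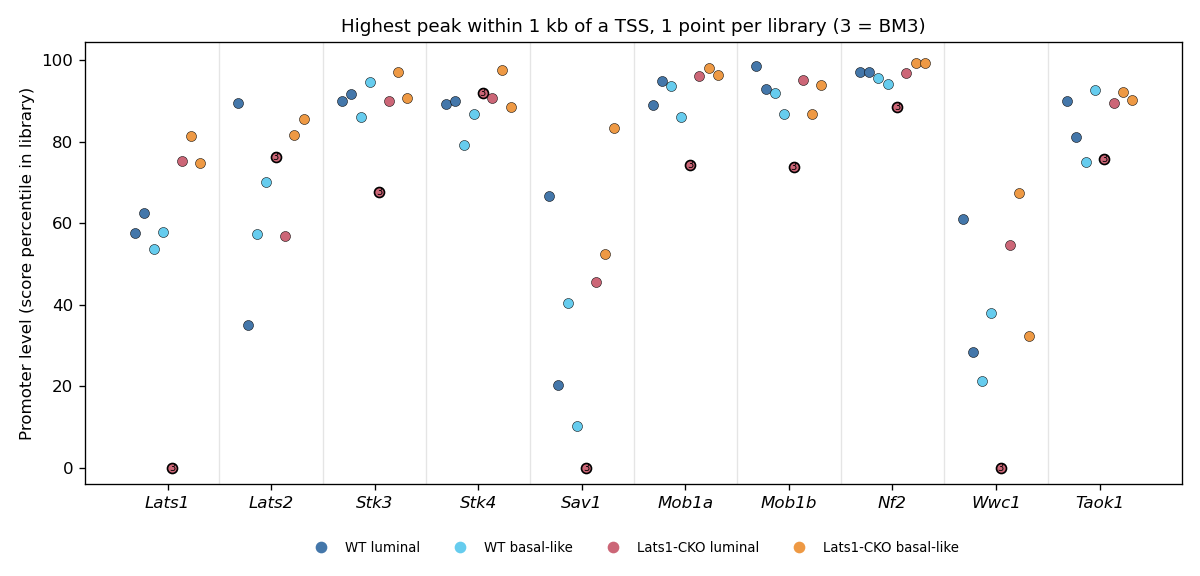
Promoter level (percentile of the peak score within its library, vertical axis) of the 10 genes, 1 point for each of the 8 libraries, colored by group, with BM3 marked 3. Nf2 stayed at 88.6 or more in every library, Sav1 ranged from 0 to 83.4, and BM3 had no promoter peak at Lats1, Sav1 or Wwc1.

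Over the 7 libraries without BM3, the median promoter level was highest at Nf2 (97.0) and Mob1a (95.0), followed by Mob1b (92.8), Stk3 (90.8), Taok1 (89.9) and Stk4 (89.3). Lats2 (70.2) and Lats1 (62.4) came next, and Sav1 (45.6) and Wwc1 (38.1) last. Each pair of neighbors in this order had overlapping ranges, so their order is within the spread between libraries. The range of Lats1, 53.6 to 81.5, lay below the ranges of Nf2, Mob1a, Mob1b and Stk3, and overlapped that of Lats2. Among the 9628 genes with a promoter peak in all 7 libraries, 87.7% had a lower median than Nf2, 10.3% a lower one than Lats1, 1.86% a lower one than Sav1 and 0.737% a lower one than Wwc1.

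Lats1, the kinase gene targeted in Lats1-CKO cells, lies on the plus strand at chr10:7681214-7716460 (mm10), head to head with Pcmt1, which encodes a protein repair methyltransferase. Its promoter region, chr10:7681445-7681988, overlaps the last bases of the first exon and lies for the most part in the first intron. Its level was 62.4 in BM5, 57.6 in BM1, 53.6 in BM2 and 57.8 in BM6, the WT libraries. In Lats1-CKO libraries it was 75.2 in BM7, 81.5 in BM4 and 74.7 in BM8, with no peak in BM3. The 4 WT values lay close together, and the Lats1-CKO values lay above them except that of BM3. The region merges separate peaks, however, so these values do not all stand for the same one. In BM6 the level came from a peak 0.664 kb from the 5′ end, and in BM1, BM2 and BM5 from one at 0.351 to 0.3625 kb. At the downstream peak BM1 stood at 37.3 and BM2 at 42.0, and BM5 had none.

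With all 8 libraries the mean promoter level of Lats1 was 57.9 ± 3.61 in the WT and 57.9 ± 38.7 in the Lats1-CKO libraries (SD, n = 4 each, exact permutation test, two-sided p = 1, adjusted over all genes p = 1). Without BM3 the Lats1-CKO mean was 77.1 ± 3.75 (SD, n = 3), a difference of WT minus Lats1-CKO of -19.3 percentile points, and each of the 3 libraries lay above every WT library (exact permutation p = 0.0286, the smallest that 4 against 3 allow, adjusted p = 0.617). Without BM3, however, 10.3% of all genes tested lay higher in all 3 Lats1-CKO libraries than in all WT libraries, and 11.1% did not overlap in either direction. A percentile depends on how many weak peaks were called: with the 51497 highest-scoring peaks of each of the 7 libraries, an alternative chosen after the data were seen, Lats1 stood at 40.2, 36.5, 57.1 and 57.8 in WT and 69.0, 55.1 and 51.4 in Lats1-CKO. WT averaged 47.9 ± 11.15 (SD, n = 4) and Lats1-CKO 58.5 ± 9.26 (SD, n = 3). The difference of WT minus Lats1-CKO was -10.6, in the same direction, and the groups overlapped (exact permutation p = 0.286, adjusted p = 0.911). With equal numbers of peaks 7% of all genes did not overlap, and 2.72% lay higher in Lats1-CKO.

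The central part of the Lats1 promoter region is shown because the region carries the highest Lats1 promoter peak of all 7 libraries that have one. The printed stretch holds only parts of these peaks, and the middle of the peak lies outside it in BM5 and BM6. This stretch is GC-rich (71.3% G or C, with 26 CpG). It holds none of the 4 motifs searched on both strands: GGAATG, the core of TEAD sites, TGANTCA (AP-1), TGTGGT (RUNX) and CAGGTG (E-box), so no base is in capitals.
Lats1 promoter region, chr10:7681570-7681869, plus strand: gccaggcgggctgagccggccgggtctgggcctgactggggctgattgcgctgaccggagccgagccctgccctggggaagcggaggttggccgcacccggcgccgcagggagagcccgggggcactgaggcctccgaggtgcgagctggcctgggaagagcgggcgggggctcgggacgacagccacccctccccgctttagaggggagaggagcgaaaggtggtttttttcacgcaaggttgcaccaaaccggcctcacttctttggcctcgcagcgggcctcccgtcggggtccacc
A second, weaker region over the TSS itself, chr10:7681074-7681271, had a peak in 6 libraries, at percentiles from 19.2 in BM7 to 53.0 in BM8, and none in BM3 or BM5. The RefSeq promoter of Lats1 there holds 42 CpG, more than 97.0% of the 32851 promoters in the table.

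Another region, chr10:7680922-7681009, was listed in BM7 alone, at 26.2.

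The 1 open region of Lats1 away from the promoter, chr10:7695421-7695589, lay 14.3 kb downstream of the 5′ end between the second and the third exon. Its percentile was 69.8 in BM5, 49.0 in BM1, 75.0 in BM2 and 53.4 in BM6, and 78.6 in BM7, 81.7 in BM4 and 73.3 in BM8. No peak was listed there in BM3. It was thus present in both genotypes and populations, and the WT and Lats1-CKO values overlapped. Its sequence is printed whole, as the 1 distal element of the deleted gene, and holds no CpG and none of the 4 motifs.
Lats1 intron region, chr10:7695421-7695589, plus strand: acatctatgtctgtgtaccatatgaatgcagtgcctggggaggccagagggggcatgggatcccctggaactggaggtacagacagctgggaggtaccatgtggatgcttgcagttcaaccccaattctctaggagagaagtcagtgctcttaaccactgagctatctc

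Peaks over the Lats1 exons were counted next. Over the first exon of transcript Lats1-202 there was 1 peak in BM1, BM4, BM6, BM7 and BM8 and there were 2 in BM2, with none in BM3 or BM5. No library of either genotype had a peak over the second to the eighth exon. This applies to WT as well as to Lats1-CKO, so the exons give no check of the deletion. Over exons lying more than 1 kb from a TSS, 1.42% (BM3) to 15.0% (BM8) of genes had any peak. Among the 10 genes Wwc1 alone had such peaks.

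**Figure D2:**
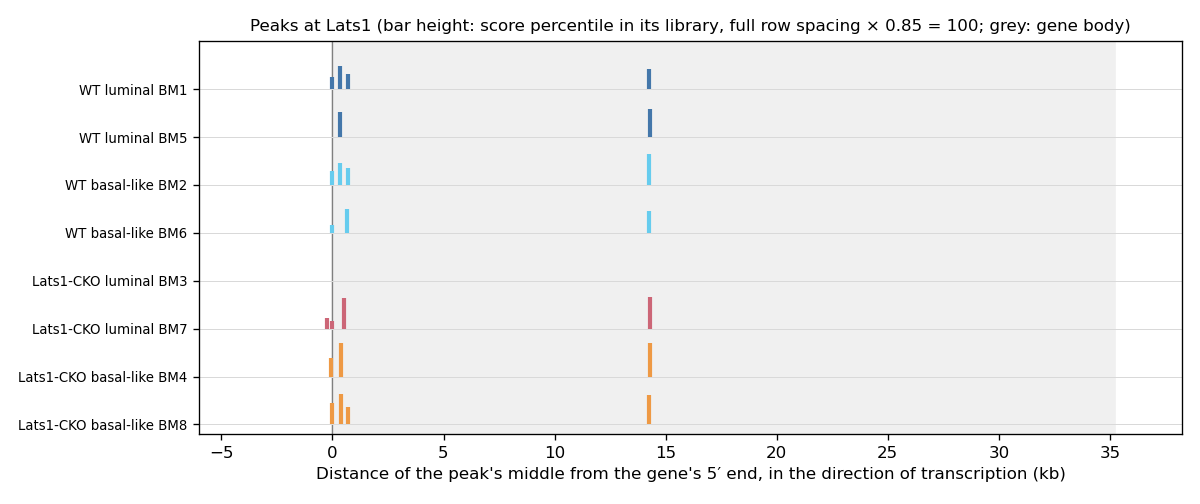
Peaks of each library at Lats1, by distance of the middle of the peak from the 5′ end of the gene (kb, horizontal axis), with 1 row per library in group order. Bar height is the score percentile in that library (0.85 of the row spacing is 100) and the gene body is grey. All libraries except BM3 show peaks near 0 kb and at 14.3 kb, and nothing over the 3′ exons.

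Lats2, the paralogous kinase, lies on the minus strand at chr14:57689662-57758388 and overlaps the model Gm49361, so peaks there cannot be assigned to one of these genes. Of its 15 regions, those at 4.57 kb and at -2.22 kb from the 5′ end lie outside Gm49361. Its 5′-most annotated start had no peak in any library. The promoter peak lay 12.2 kb inside the annotated gene, at chr14:57746047-57746324 over a downstream TSS, and was present in all 8 libraries. The level was 35.1 in BM5, 89.6 in BM1, 57.3 in BM2 and 70.2 in BM6 in WT. In Lats1-CKO it was 76.3 in BM3, 56.9 in BM7, 81.7 in BM4 and 85.5 in BM8. The replicates of 1 group differed as much as the groups did: WT averaged 63.0 ± 22.9 and Lats1-CKO 75.1 ± 12.7 (SD, n = 4 each, exact permutation p = 0.429, adjusted p = 1). The part of the region outside annotated untranslated bases is printed as the start that was open in all 8 libraries, with 1 E-box match in capitals. It has 78.1% G or C.
Lats2 promoter region, chr14:57746124-57746324, minus strand: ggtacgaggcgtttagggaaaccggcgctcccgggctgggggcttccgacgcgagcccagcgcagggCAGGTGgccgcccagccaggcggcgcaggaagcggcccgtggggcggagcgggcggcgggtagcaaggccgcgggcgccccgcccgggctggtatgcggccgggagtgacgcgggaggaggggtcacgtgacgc
In the central 300 bp of the region, which take in untranslated bases not printed, GGAATG and CAGGTG each occurred once.

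One intronic region of Lats2, 53.1 kb downstream of the 5′ end at chr14:57705071-57705416, was open in 6 libraries and absent from both Lats1-CKO basal-like libraries. In WT cells its percentile was 89.9 (BM5) and 98.0 (BM1) in the luminal and 76.3 (BM6) and 93.5 (BM2) in the basal-like libraries. In Lats1-CKO luminal cells it was 57.3 (BM3) and 91.9 (BM7). In BM4 and BM8 no peak was listed. Of all 183173 regions, 167 (0.0912%) had this pattern, and 1 of the 113 regions of the 10 genes. This count needs a peak in BM3, the shortest list. With BM3 ignored, 669 of all regions and 2 of the 113 had the pattern, the other being Wwc1 at 54.9 kb. The pattern was chosen after the data were seen and was not tested. In the other direction, 3 of the 113 regions were in both Lats1-CKO basal-like libraries and in no other library, where 1.98% of all regions were. They lay 38.6 kb into Lats2 (2.45 in BM4, 42.4 in BM8), 66.2 kb into Stk4 (89.0 and 22.8) and 34.3 kb into Nf2 (42.5 and 18.5). In WT luminal libraries alone there was 1, 31.4 kb into Stk4 (34.5 in BM1, 28.5 in BM5), where 0.301% of all regions were. Some marker genes moved with this split and others did not. The promoter of Epcam, the surface protein used in the sort, had no peak in BM4 or BM8 and stood at 22.5 to 88.0 in the other 6 libraries. Cldn3 had the same split (no peak in BM4 or BM8, 32.2 to 92.0 in the other 6). Krt18 (also none in BM3) and Prom1 (also none in BM3, BM6 and BM7) had no peak there either. Foxa1 (5.12) and Cldn7 (27.4) had one in BM4 and none in BM8. The luminal markers Gata3 (97.0 and 94.6), Elf5 (93.3 and 86.7) and Cd24a (72.1 and 91.0) stayed high in BM4 and BM8. Krt8 (50.3 and 43.0), Esr1 (69.45 and 44.0) and Krt19 (67.5 and 1.83) had a peak in both. Of the 12 luminal markers, 8 had a promoter peak in BM4 and 6 in BM8, against 6 to 12 in the other libraries. Of the 5 immune markers, 2 had one in BM4, 3 in BM8, 1 in BM7 and 0 in the other 5 libraries. Their part in the result was not tested.

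The sequence of this Lats2 region is shown for its pattern. With all 8 libraries counted, it was the 1 region of the 113 absent from both libraries of 1 group alone. Capitals mark 1 TGTGGT, 1 GGAATG and 2 CAGGTG matches.
Lats2 intron region, chr14:57705094-57705393, minus strand: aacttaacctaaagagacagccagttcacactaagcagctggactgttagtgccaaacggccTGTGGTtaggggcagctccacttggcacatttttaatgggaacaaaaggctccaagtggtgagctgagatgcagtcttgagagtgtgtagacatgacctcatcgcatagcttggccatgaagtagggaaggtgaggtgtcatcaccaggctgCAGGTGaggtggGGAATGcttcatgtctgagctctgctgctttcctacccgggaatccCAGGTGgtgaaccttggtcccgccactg
Upstream of Lats2, a region at -2.22 kb from the 5′ end (chr14:57760422-57760798) was open in 6 libraries, at 36.1 in BM5, 52.2 in BM2, 71.4 in BM1, 82.4 in BM7, 90.1 in BM4 and 92.3 in BM8. It was missing in BM3 and BM6, the libraries with the fewest peaks. In all, Lats2 had 4 to 7 peaks in WT libraries, 11 in BM7 and BM8, 6 in BM4 and 2 in BM3. Per 10000 peaks of the library, the groups overlapped (0.929 ± 0.296 in WT, 1.08 ± 0.279 in Lats1-CKO, SD, n = 4 each, exact permutation p = 0.457, adjusted p = 1).

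**Figure D3:**
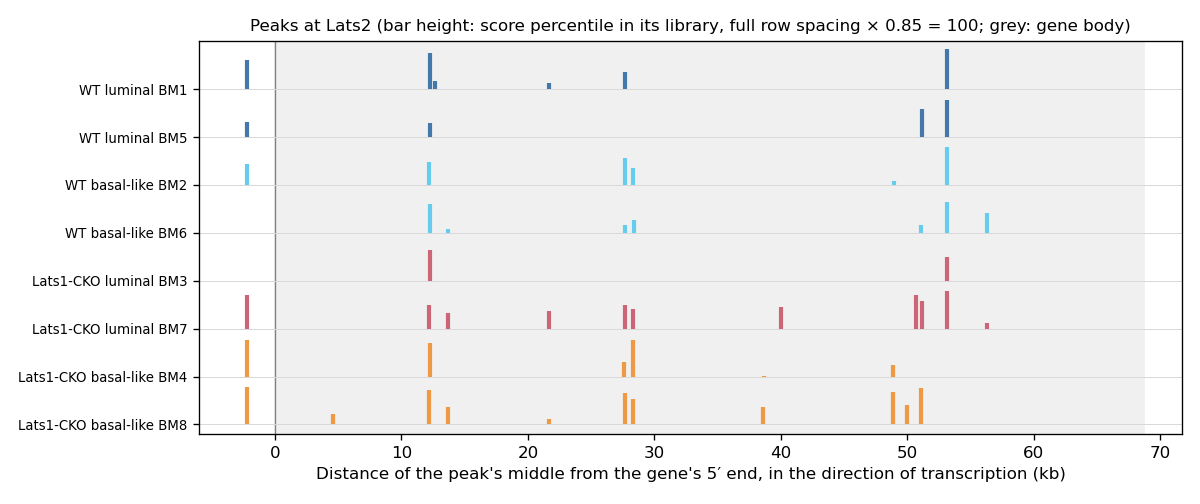
Peaks of each library at Lats2, by distance of the middle of the peak from the 5′ end (kb), with 1 row per library in group order and bar height as the score percentile (0.85 of the row spacing is 100). The peak at 12.2 kb is in all 8 rows, and that at 53.1 kb is missing from both Lats1-CKO basal-like rows.

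Stk3 and Stk4, the kinases that activate LATS, had strong promoter peaks throughout. At Stk3 (chr15:34875496-35178921, minus strand) the promoter peak lay 23.1 kb inside the gene, at chr15:35155639-35156029. It stood at 89.8, 91.6, 86.0 and 94.6 in the WT libraries BM1, BM5, BM2 and BM6, and at 67.6, 89.9, 97.0 and 90.8 in BM3, BM7, BM4 and BM8. A neighboring region at 21.4 kb, chr15:35157349-35157689, was also open in all 8 libraries. It stood at 93.45, 86.7, 68.2 and 93.85 in the luminal libraries BM1, BM5, BM3 and BM7. In the basal-like libraries BM2, BM6, BM4 and BM8 it stood at 98.8, 95.25, 95.0 and 99.1. These percentiles of a region were not tested, and the share of all regions so divided is not given. The annotated 5′ end of the gene had no peak. Deep in the gene, 101.9 kb from the 5′ end, a region was listed in all libraries except BM3, between 51.8 in BM8 and 91.6 in BM1. The other 17 Stk3 regions were each in 1 to 6 libraries, 11 of them in only 1.

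Stk4 (chr2:164070322-164155524, plus strand) had 2 regions open in all 8 libraries. The first, 0.886 kb from the 5′ end at chr2:164071037-164071379, also lies within 1 kb of the start of Tomm34, a gene for a mitochondrial import protein, and had percentiles of 79.2 to 97.6. The second, at chr2:164073940-164074238, covers a downstream TSS of Stk4 and ranged from 65.1 in BM5 to 90.7 in BM7. The promoter level was 86.3 ± 4.93 in WT and 92.2 ± 3.92 in Lats1-CKO (SD, n = 4 each, exact permutation p = 0.114, adjusted p = 1), which was the lowest p of the 10 genes in this comparison. Within the luminal libraries both Lats1-CKO values (92.0 in BM3, 90.7 in BM7) lay above both WT values (89.3 and 90.0), and within the basal-like libraries too (97.6 in BM4 and 88.4 in BM8 above 79.2 and 86.8). Such a separation within each population was seen at 2.04% of all genes, and with Lats1-CKO higher at 0.666%. Over all 8 the genotypes of Stk4 overlapped. In BM1 and BM7 the level came from the second region, and in the other libraries from the first. Within each region the luminal genotypes overlapped. The first stood at 86.5 (BM1) and 90.0 (BM5) in WT and 92.0 (BM3) and 88.05 (BM7) in Lats1-CKO. The second stood at 89.3 and 65.1 against 70.1 and 90.7.

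Far into Stk4, 64.4 kb from the 5′ end at chr2:164134685-164134805, a region near the start of the antisense gene Gm11455 was open in BM4 (36.4), BM7 (67.6) and BM8 (75.8). No WT library listed it, and neither did BM3. It was the single region of the 113 that separated the genotypes without BM3. Of all regions, 1.5% were in all 3 Lats1-CKO libraries and no WT library without BM3, and 0.0661% in all WT libraries and no Lats1-CKO library. The 3 libraries that list it are also those with the most peaks. Its sequence is printed for that reason and holds none of the 4 motifs.
Stk4 intron region, chr2:164134685-164134805, plus strand: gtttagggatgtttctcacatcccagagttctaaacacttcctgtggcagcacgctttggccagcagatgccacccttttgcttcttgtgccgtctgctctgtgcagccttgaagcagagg
Another, at 70.1 kb, was listed in BM1, BM2 and BM5 at 57.1, 57.9 and 63.9, and in no other library. One at 80.2 kb was in 7 libraries, absent from BM5, with 3.18 in BM3 and 57.9 to 95.0 in the others.

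The scaffold gene Sav1 (chr12:69965012-69987002, minus strand) had the most variable promoter. Its level was 20.4 in BM5, 66.6 in BM1, 40.5 in BM2 and 10.3 in BM6, and 0 in BM3, 45.6 in BM7, 52.6 in BM4 and 83.4 in BM8. Both genotypes spanned most of this range (34.4 ± 24.8 in WT, 45.4 ± 34.4 in Lats1-CKO, SD, n = 4 each, exact permutation p = 0.6, adjusted p = 1). Its RefSeq promoter was the richest in CpG of the 11 promoters matched, with 50, more than in 99.1% of all promoters. A region 1.27 kb into the gene was listed in BM4, BM5, BM6, BM7 and BM8 but not in BM1, BM2 or BM3.

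The MOB coactivator genes differed little between libraries. Mob1a (chr6:83326016-83343776, plus strand) shares its promoter region with Mthfd2, a gene of mitochondrial folate metabolism. Its level was 89.1, 95.0, 93.6 and 86.0 in BM1, BM5, BM2 and BM6, and 74.3, 96.1, 98.0 and 96.4 in BM3, BM7, BM4 and BM8. Without BM3 all Lats1-CKO values lay above all WT values, with a difference of WT minus Lats1-CKO of -5.89 (exact permutation p = 0.0857, adjusted p = 0.617), against the 11.1% of all genes given above. With equal numbers of peaks the difference was -5.13 and the groups overlapped (p = 0.2 in the same exact test, adjusted p = 0.900). Mob1b (chr5:88720855-88764220, plus strand) stood at 98.5, 92.8, 91.9 and 86.7 in those WT libraries and at 73.8, 95.1, 86.7 and 93.9 in Lats1-CKO, so the genotypes overlapped.

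Nf2 encodes merlin, the membrane-linked tumor suppressor that brings LATS to the plasma membrane. The gene (chr11:4765845-4849536, minus strand) had the highest median promoter level of the 10, over chr11:4849360-4849855. It was 97.2 in BM5, 97.0 in BM1, 95.5 in BM2 and 94.0 in BM6, and 88.6 in BM3, 96.8 in BM7, 99.3 in BM4 and 99.3 in BM8. The 2 Lats1-CKO basal-like libraries were highest and BM3 lowest. WT averaged 95.9 ± 1.48 and Lats1-CKO 96.0 ± 5.09 (SD, n = 4 each, exact permutation p = 1, adjusted p = 1). Its sequence outside untranslated bases is shown as the strongest promoter of the set, and holds 22 CpG and none of the 4 motifs.
Nf2 promoter region, chr11:4849547-4849846, minus strand: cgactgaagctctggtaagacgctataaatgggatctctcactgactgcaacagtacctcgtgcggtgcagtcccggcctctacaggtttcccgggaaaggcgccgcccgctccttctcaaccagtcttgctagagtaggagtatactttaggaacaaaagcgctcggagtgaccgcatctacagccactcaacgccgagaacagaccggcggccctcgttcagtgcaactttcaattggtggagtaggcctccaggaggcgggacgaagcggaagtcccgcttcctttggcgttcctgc

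Inside Nf2, regions at 23.2 kb and 5.88 kb from the 5′ end were each in all libraries except BM3. That at 23.2 kb reached 98.0 in BM4 and 94.9 in BM2, both basal-like, and was lowest in BM6 (55.4), also basal-like. The number of peaks over Nf2 was 3, 4, 3 and 4 in BM1, BM5, BM2 and BM6, and 3, 8, 6 and 8 in BM3, BM7, BM4 and BM8. Per 10000 peaks of the library this came to 0.574 ± 0.183 in WT and 1.10 ± 0.627 in Lats1-CKO (SD, n = 4 each, exact permutation p = 0.0571, adjusted p = 0.865). Here BM3 had the highest value (2.03), from 3 peaks in its short list. Without BM3 the values were 0.413 to 0.777 in WT and 0.695 to 0.856 in Lats1-CKO, and overlapped.

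Wwc1 encodes KIBRA, a scaffold that works with NF2, and had the most open regions of the set, 36 of 113. The gene (chr11:35838400-35980527, minus strand) is long, but also per 100 kb of its window its median of 12.9 peaks over the 7 libraries without BM3 was the highest of the 10. Lats1 (9.94), Mob1a (8.79) and Lats2 (8.14) followed, and Stk3 (2.27) and Taok1 (1.195) were lowest. The ranges of Wwc1 (5.44 to 17.0) and Lats1 (4.97 to 9.94) overlapped, so their order is within the spread between libraries.

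The 5′ end of Wwc1, chr11:35980485-35980689, was open in 4 libraries. The percentile was 28.5 (BM5) and 61.2 (BM1) in WT luminal, 54.7 (BM7) in Lats1-CKO luminal and 21.3 (BM2) in WT basal-like libraries. No peak was listed in BM3, BM4, BM6 or BM8, so 3 of 4 luminal and 1 of 4 basal-like libraries had it. In BM4, BM6 and BM8 the promoter level of Wwc1 (67.5, 38.1 and 32.3) came from another region, 127.6 kb into the gene near an internal TSS. The sequence of the 5′ end outside untranslated bases is printed next to that of the upstream region to let them be compared. The printed stretch is GC-rich (74.1%, 19 CpG) and holds none of the 4 motifs, while the central 300 bp of the region, which take in untranslated bases not printed, hold 1 E-box match.
Wwc1 5′ end region, chr11:35980528-35980689, minus strand: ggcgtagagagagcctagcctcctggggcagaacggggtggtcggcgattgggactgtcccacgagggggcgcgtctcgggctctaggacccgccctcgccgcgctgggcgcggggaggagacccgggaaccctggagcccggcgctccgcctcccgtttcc
Wwc1 upstream region, chr11:35982887-35983186, minus strand: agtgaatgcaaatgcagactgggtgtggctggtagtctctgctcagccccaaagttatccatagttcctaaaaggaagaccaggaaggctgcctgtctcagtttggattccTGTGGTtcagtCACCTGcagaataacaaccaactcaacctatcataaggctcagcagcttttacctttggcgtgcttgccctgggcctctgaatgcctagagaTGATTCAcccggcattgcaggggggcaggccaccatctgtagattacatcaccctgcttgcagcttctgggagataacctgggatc

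The upstream region, at -2.51 kb from the 5′ end (chr11:35982880-35983193), was open in all 8 libraries. It stood at 83.9 in BM5, 97.5 in BM1, 90.8 in BM2 and 56.2 in BM6 in WT. In Lats1-CKO it stood at 95.2 in BM7, 32.0 in BM8, 15.8 in BM4 and 14.9 in BM3. Both Lats1-CKO basal-like libraries and BM3 were low, while BM7 was as high as WT. These percentiles of a region were not tested. Its 300 bases have 51.3% G or C and 2 CpG, and capitals mark 1 match each to the RUNX, E-box and AP-1 motifs.

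The number of Wwc1 peaks differed widely between replicates of Lats1-CKO. BM4 listed 8 peaks over the gene and BM8, of the same group, 25. WT libraries listed 19 (BM1), 16 (BM5), 20 (BM2) and 13 (BM6), BM7 listed 20 and BM3 3. A region at 54.9 kb was in all WT libraries (15.7 to 70.3) and BM7 (56.9), and absent from BM3, BM4 and BM8. A region at 9.43 kb was in all WT libraries (10.4 to 69.8) and in BM8 (4.75), and absent from the other Lats1-CKO libraries. A region at 24.7 kb was in every library except BM3, with 30.0 in BM6 and 67.5 to 93.5 in the others. Per 10000 peaks, Wwc1 had 2.68 ± 0.136 peaks in WT and 1.91 ± 0.686 in Lats1-CKO (SD, n = 4 each, exact permutation p = 0.0571, adjusted p = 0.865). The values were 2.61, 2.72, 2.84 and 2.52 in BM1, BM5, BM2 and BM6, and 2.03, 2.14, 0.927 and 2.53 in BM3, BM7, BM4 and BM8. BM8 thus lay just inside the WT range. With equal numbers of peaks of the 7 libraries, WT had 2.67 ± 0.291 (SD, n = 4) and Lats1-CKO 2.33 ± 1.03 (SD, n = 3, exact permutation p = 0.857, adjusted p = 1).

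At the 3′ end of Wwc1, regions at 136 kb and 141.4 kb were open in all 8 libraries and one at 141.9 kb in all except BM3. Those at 141.4 and 141.9 kb overlap exons, with 2 exon peaks beyond 1 kb of a TSS in each library and 1 in BM3. Wwc1 was thus open at its 3′ end in more libraries than at its 5′ end.

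**Figure D4:**
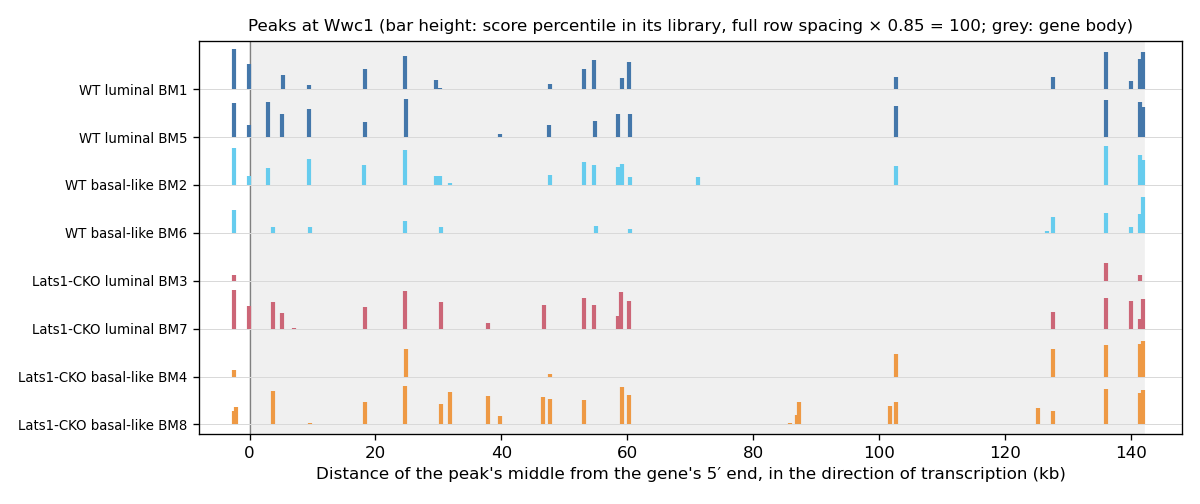
Peaks of each library at Wwc1, by distance of the middle of the peak from the 5′ end (kb), with 1 row per library in group order and bar height as the score percentile (0.85 of the row spacing is 100). The upstream peak at -2.51 kb and the 3′ peaks at 136 and 141.4 kb are in all 8 rows, and BM4 has 8 peaks in all.

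Taok1 (chr11:77529162-77607815, minus strand), a kinase that can phosphorylate STK3 and STK4, was the plainest of the set. A single promoter region was open in all 8 libraries, at 89.9, 81.2, 75.0 and 92.8 in BM1, BM5, BM2 and BM6 and at 75.8, 89.4, 92.3 and 90.3 in BM3, BM7, BM4 and BM8. BM4 alone listed 1 more peak in the window, at 28.8. The genotypes overlapped (exact permutation p = 0.771, adjusted p = 1).

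**Figure D5:**
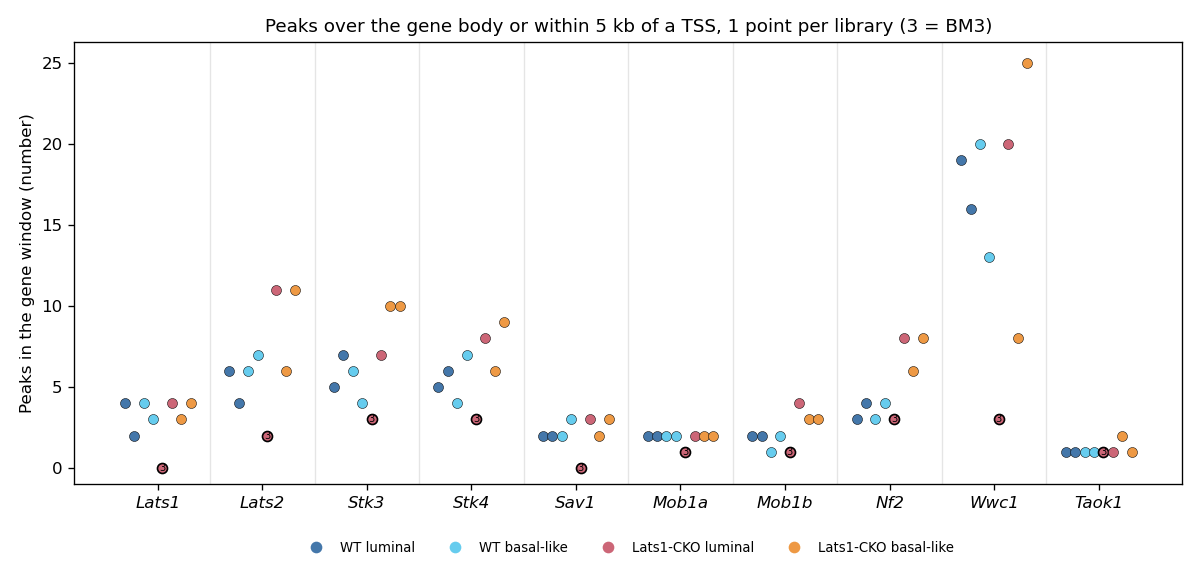
Number of peaks over the gene body or within 5 kb of a TSS (vertical axis) for the 10 genes, 1 point for each of the 8 libraries, colored by group, with BM3 marked 3. Wwc1 had 8 to 25 peaks outside BM3, Taok1 1 or 2, and BM3 was the lowest or among the lowest for every gene.

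Genotype was then compared over the 10 genes. For promoter level, 0 of 10 genes had groups that did not overlap, where 1.12% of the 14571 genes tested did (exact permutation p from 0.114 to 1, adjusted p = 1 for each). For the number of peaks per 10000, 0 of 10 did, against 4.69% of 17758 genes (p from 0.0571 to 1, lowest adjusted p = 0.865, in the same exact test). Without BM3 14.6% of all genes did not overlap in the number of peaks, and with equal numbers of peaks 2.5%. Mob1a was the 1 gene of the 10 that did without BM3, at 2 peaks in each of the 7 libraries, so that its value there moved with the total of the library alone. No region of the 113 was in all libraries of 1 genotype and none of the other, against 0.0704% of all regions.

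Populations gave the same counts. For promoter level, 0 of 10 genes had luminal and basal-like groups that did not overlap, against 0.933% of all genes (exact permutation p from 0.286 to 0.971, adjusted p = 1 for each). For the number of peaks it was 0 of 10, against 1.73% (p from 0.286 to 1 in the same exact test, adjusted p = 1 for each). None of the 113 regions separated the populations, against 0.0977% of all regions. The exact permutation test of 4 against 4 libraries cannot go below p = 0.0286, so no gene could pass the adjusted threshold unless very many did, and overlap here does not show that the groups are alike.

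The 36 other Hippo genes, from YAP, TAZ and TEAD genes to polarity and junction genes, gave no call for genotype. In either measure 0 of 36 had groups that did not overlap, against 1.12% of all genes for promoter level and 4.69% for the number of peaks. Between populations, 1 of 36 (2.78%) had groups that did not overlap for promoter level, against 0.933% of all genes. It was Crb3, which encodes an apical polarity protein of epithelial cells. Its level was 36.7 in BM5, 50.2 in BM1, 57.3 in BM3 and 59.7 in BM7, and no promoter peak was listed in any of the 4 basal-like libraries (exact permutation p = 0.0286, adjusted p = 1). Unlike the 10 genes, Crb3 thus had its promoter peak in every luminal library, BM3 included, and in none of the basal-like ones. For the number of peaks, 1 of 36 (2.78%) had populations that did not overlap, against 1.73% of all genes. It was Amot, an angiomotin that binds YAP. It had 0.963, 1.19, 0.678 and 0.642 peaks per 10000 in BM1, BM5, BM3 and BM7, and 0.568, 0.388, 0.580 and 0.404 in BM2, BM6, BM4 and BM8 (exact permutation p = 0.0286, adjusted p = 1).

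Yap1 and Wwtr1, which encodes TAZ, had a promoter peak in all 8 libraries. The level of Yap1 was 87.6, 87.6, 90.0 and 62.7 in BM1, BM5, BM2 and BM6 and 8.28, 82.6, 79.0 and 71.1 in BM3, BM7, BM4 and BM8. That of Wwtr1 was 79.4 to 92.1 in WT libraries, 61.3 in BM3 and 90.9 to 95.8 in the other Lats1-CKO libraries. Both overlapped between genotypes over the 8 libraries.

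How stable the 113 regions were across libraries was set beside all regions. Of the 113, 12 (10.6%) were in all 8 libraries, against 5.95% of all regions, and 39 (34.5%) in a single library, against 44.5%. Within 1 kb of a TSS of a coding gene 8 of 23 (34.8%) were in all 8, against 22.3%, and beyond 1 kb 4 of 90 (4.44%), against 2.88%. The 4 distal ones were the Stk3 region at 21.4 kb, the upstream region of Wwc1 and its regions at 136 and 141.4 kb. In the central 300 bp, GGAATG was found in 28 of the 113 (24.8%), against 21.03% of all regions, TGANTCA in 25.7% against 29.5%, TGTGGT in 21.2% against 27.8%, and CAGGTG in 20.4% against 19.4%. All 4 distal regions open in every library held a TGANTCA match, as did 52.6% of all 4431 such regions. A match gives letters in a window and no binding.

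RefSeq promoters, 300 bases around a gene's start, were matched for 9 of the 10 genes, with 11 promoters. A peak lay on them in all 8 libraries for Lats2 (the CpG-rich one of its pair), Stk4, Mob1a, Mob1b, Nf2 (likewise) and Taok1. It lay there in 7 libraries for Sav1, 6 for Lats1 and 4 for Wwc1. The second promoters of Lats2 and Nf2, with 4 and 2 CpG, had none. The other 9 promoters held 19 to 50 CpG, against a median of 7 over all promoters.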

How the data were processed

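ATAC-seq was done in 8 libraries, 2 of each group. Per the methods and the submitters' processing notes, the authors trimmed reads with cutadapt, aligned them to mm10 with Bowtie 1.0.0 and removed duplicates with Picard 2.3.0. Peaks were called with MACS2 (2.1.1.20160309 in the notes, an earlier version in the methods), in each library separately. By the methods, mitochondrial reads, long fragments and peaks on the ENCODE blacklist were left out. The deposited lists give each peak a score, a whole number of 13 or more taken as that of MACS2 and not normalized between libraries. Only its percentile in the library was used, which rises with the number of weak peaks called. 1 Lats1-CKO luminal replicate was left out by the authors for quality when combining replicates, and is not named. All 8 libraries were kept here.

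Gene models and TSSs came from GENCODE M21 and sequences from the mm10 genome of RefSeq, with its promoter table of build GRCm38. Printed stretches leave out annotated untranslated bases. Overlap was at least 1 bp. Groups were compared by the exact two-sided permutation test of 4 against 4 libraries (70 splits), with Benjamini-Hochberg adjustment over all genes with a value above 0, and a gene was called when groups did not overlap. The code was tested on simulated data. Python 3.11.15, numpy 2.4.6 and pysam 0.24.0 were used. The 10 genes, the other Hippo genes, the markers and the motifs were chosen with earlier results of these data known. The rule for named items was: each of the 10 genes, other Hippo genes that were called (at most 5 per comparison), the promoter region and the other regions in most libraries of each gene, any region called, and any peak over a Lats1 exon. Other regions described, such as the 5′ end of Wwc1, and Yap1 and Wwtr1 were picked after their values were seen. Alternatives were the 10000 highest-scoring peaks, scores at or above the median, other windows, presence only, merging within 100 bp, comparison within strata, and leaving out each library.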

Additional observations from a re-analysis of the deposited data

Results flagged for a closer look

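In groups of 4 libraries, 1 library stood far from the other 3 in 11 of 80 groups examined, of which 8 were BM3 (chance flags about 5% of groups). BM3 was the low one among Lats1-CKO libraries in the promoter level of Lats1 (0) and Mob1a (74.3), and among luminal libraries in that of Stk3 (67.6) and Nf2 (88.6). It was the high one in peaks per 10000 among Lats1-CKO libraries for Stk4 (2.03), Mob1a (0.678) and Nf2 (2.03), and among luminal libraries for Taok1 (0.678), in each case from 1 to 3 peaks in a list of 14753. The other 3 were BM2, low in the promoter level of Taok1 among basal-like libraries (75.0), BM5, low in Lats1 peaks per 10000 among WT libraries (0.340), and BM4, low in Wwc1 peaks per 10000 among basal-like libraries (0.927).

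The promoter level of Nf2 moved in opposite directions with no overlap: WT minus Lats1-CKO was 4.41 in luminal and -4.51 in basal-like libraries, and luminal minus basal-like was 2.32 in WT and -6.60 in Lats1-CKO. The luminal difference rests for the most part on BM3: without it, WT minus Lats1-CKO in luminal libraries was 0.276, and luminal minus basal-like in Lats1-CKO was -2.46. The peaks of Lats2 per 10000, luminal minus basal-like, were -0.353 in WT and 0.363 in Lats1-CKO. These differences between groups of 2 libraries were picked by scanning the genes and measures, and were not tested. The share of all genes with such opposite differences is not given, so whether Nf2 and Lats2 are unusual is unknown.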

How the results depend on the processing

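With all 8 libraries, 0 of the 10 genes were called in each of the 4 gene comparisons, and 0 of 113 regions in both comparisons of presence. For promoter level by genotype, comparison within strata called 1 gene (Stk4), and leaving out a library gave 0 to 2 (Lats1 and Mob1a without BM3, Stk4 without BM8), while of all genes 2.04% and 1.86% to 11.1% were called. For promoter level by population, the 10000 highest-scoring peaks called 1 (Mob1b, by 37.1 higher in luminal, 1.68% of all genes called), a distance of 5 kb called 1 (Stk3, by -10.8 in luminal minus basal-like, 1.01% of all genes), and leaving out a library gave 0 to 1 (Taok1 without BM2, Stk4 without BM4, 1.44% to 4.37% of all genes). For peak number by genotype, leaving out a library gave 0 to 2 (Mob1a without BM3, Nf2 without BM4 or BM6, Lats1 without BM5, Wwc1 without BM6 or BM8, 5.99% to 14.6% of all genes). For peak number by population no alternative run called any. For presence, leaving out a library gave 0 to 1 regions by genotype (Stk4 at 64.4 kb without BM3, Stk4 at 70.1 kb without BM6, Wwc1 at 54.9 kb without BM7 and at 9.43 kb without BM8, 0.0999% to 1.57% of all regions) and 0 to 2 by population (0.157% to 0.561%). The difference of WT minus Lats1-CKO, near 0 with all libraries, turned without BM3. Leaving out a library, it went from -19.3 (BM3) to 7.87 (BM4) for the promoter level of Lats1, and from 0.106 (BM3) to -0.0526 (BM8) for the peak number of Mob1a. Both lose their call with equal numbers of peaks. The cause of these changes, and of the others, was not tested.

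The lists hold no reads, so a missing peak can be a lack of depth, and counting error cannot be given. With 4 against 4 libraries no p was below 0.0286. No paired analysis was possible because the labels carry no replicate numbers, and numbers in accession order pair nothing.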
